A study of Sus scrofa with 48 samples.

Results

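Aquaporins, the membrane channels that carry water and, in some members, glycerol, were described in perirenal adipose tissue (PRAT) of 48 Large White barrows aged 132 days. Members were the array probes whose gene name in the scanner files starts with AQP and whose spot was flagged well above background on at least 24 of the 48 arrays. This left 13 of 21 aquaporin probes, which stand for 7 of 9 aquaporin genes so named, among 60305 probes in all and 43355 probes that passed the same detection filter. The pigs came from a low and a high line of a selection experiment on residual feed intake (RFI), in which pigs of the low line eat less than their growth and body weight would predict. Within each line, 12 pigs had free access to a high-fat high-fiber diet (HF), with plant oils and wheat straw, and 12 to a low-fat high-starch diet (LF), so that the groups were HF low RFI, HF high RFI, LF low RFI and LF high RFI. Each pig gave 1 array, and no other treatment or allele separates the groups. RNA came from pieces of whole fat tissue, so fewer cells of a type and less RNA per cell cannot be told apart.

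Water-selective aquaporins such as AQP1, AQP2 and AQP5 let water follow osmotic gradients. AQP2 is the vasopressin-regulated water channel of the kidney collecting duct. AQP3, AQP7, AQP9 and AQP10 are aquaglyceroporins, which also conduct glycerol. AQP7 is the classical adipocyte glycerol channel, through which glycerol leaves fat cells during lipolysis. AQP1 is abundant in capillary endothelium and in red blood cells.

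Values are given as log2 of the median Cy3 signal of a spot minus the median of its array, called centred log2 signal below. Levels of different probes were not compared, since probes differ in how strongly they bind. Between 38875 and 47814 probes were well above background per array, and no spot was saturated. The arrays lay on 6 slides with 2 arrays of each group per slide, so that diet and line were balanced over slides and over the 2 scan days.

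The aquaporin probes are 60-mers, and a selection of them is shown here because the 2 AQP2 probes behaved differently and because the AQP7 probes are 1 sequence printed in 2 places. Capitals mark the longest run that each shares, on either strand, with a probe of the array that is not assigned to the same gene. These runs were 13 to 15 bases long.
AQP2 A_72_P414263 (member): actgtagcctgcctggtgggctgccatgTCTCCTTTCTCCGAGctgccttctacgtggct
AQP2 A_72_P705562 (not a member): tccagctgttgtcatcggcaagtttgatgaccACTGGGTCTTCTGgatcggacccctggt
AQP3 A_72_P088641: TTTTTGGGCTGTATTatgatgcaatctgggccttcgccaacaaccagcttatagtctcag
AQP7 O545 and A_72_P106716: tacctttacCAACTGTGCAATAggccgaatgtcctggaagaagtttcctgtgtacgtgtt
AQP10 A_72_P613152: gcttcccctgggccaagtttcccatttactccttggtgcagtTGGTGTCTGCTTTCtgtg
AQP1 A_72_P302884: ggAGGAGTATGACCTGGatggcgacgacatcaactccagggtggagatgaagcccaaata
The 2 AQP2 probes lie on different stretches of 1 reference transcript and hold 36 and 33 G or C among their 60 bases. In the Sscrofa11.1 annotation of RefSeq, used here for names and neighbours only, AQP2, AQP5 and AQP6 follow each other without another protein-coding gene between them, and so do AQP3 and AQP7. The scanner files name no genome build, and positions are therefore not given.

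Members were chosen by their detection flags on these arrays, so that detection is a description and not a result. The member nearest to the limit was the AQP6 probe A_72_P442116, well above background on 28 arrays, and the nearest probe outside was the AQP9 probe O724, well above background on 22 arrays. The other 7 probes outside were well above background on 15 arrays (AQP10 A_72_P442121) or on 0 to 7 arrays. No AQP4 probe (0, 2 and 7 arrays) and no AQP9 probe (3 and 22 arrays) became a member, so AQP9, the glycerol channel of liver and leukocytes, is not compared with AQP2. Of the 13 members, 12 were well above background on all 48 arrays.

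Probes were called differentially expressed at a raw p under 0.01, a fold change over 1.1 and a Benjamini-Hochberg (BH) adjusted p under 0.08 in limma, fitted over the 43355 probes. HF diet changed 6 of 13 aquaporin probes, beside 23.0% of all probes tested. Counted as genes by the brightest probe, 2 of 7 aquaporin genes were called (28.6%), a share near that background. The 23.0% counts probes, and a share over all genes by their brightest probe is not given. The 4 AQP3 probes were higher in HF pigs, and 1 AQP2 probe and 1 of 3 AQP1 probes were lower. Of all probes tested, 8.57% were called higher and 14.5% lower on HF diet. This split of 3714 higher and 6279 lower probes depended on the scaling, with 5572 and 5169 for processed signal, 4725 and 4395 for normexp and quantile, 4944 and 4955 when scaled to the 75th percentile and 5053 and 4668 for quantile normalization of the median signal. The median difference between diets was -0.09 over the 13 probes and -0.02 over all probes tested. The plot of diet and line differences shows the 13 probes side by side.

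**Figure D1:**
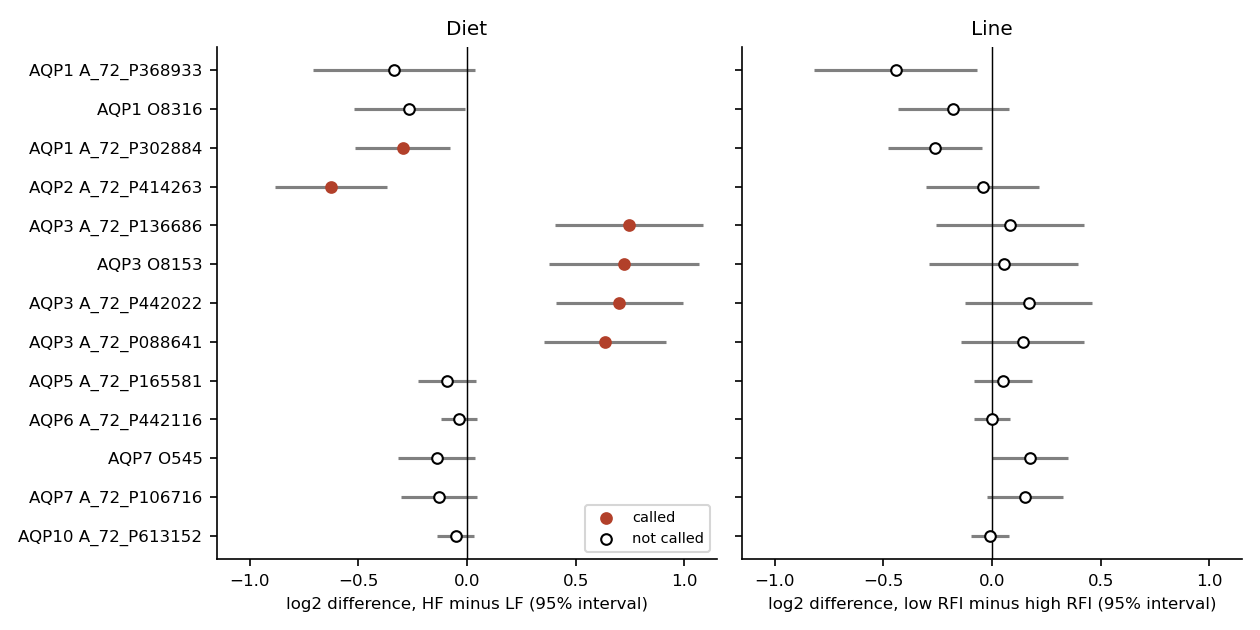
Log2 difference and 95% confidence interval of each of the 13 aquaporin probes, HF minus LF diet on the left and low minus high RFI line on the right, with filled points for called probes. The 4 AQP3 probes lie at 0.64 to 0.75 for diet, AQP2 lies at -0.63, and no probe is filled for line.

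The probe that the scanner files assign to AQP2 gave a lower signal on HF diet. Whether it measures AQP2 mRNA could not be settled from these files, and every AQP2 value is that of this probe. The centred log2 signal of A_72_P414263 ran from 1.72 through a median of 2.92 to 3.32 in HF low RFI pigs and from 2.23 through 2.75 to 3.43 in HF high RFI pigs. It ran from 2.70 through 3.38 to 3.87 in LF low RFI pigs and from 2.26 through 3.51 to 3.98 in LF high RFI pigs. The groups overlapped, but 23 of 24 HF pigs were below the mean of LF pigs, 12 of 24 LF pigs were above every HF pig, and 4 HF low RFI pigs made up a low end between 1.72 and 2.18. Group means were 2.69 ± 0.54 and 2.80 ± 0.33 on HF diet, and 3.38 ± 0.37 and 3.36 ± 0.55 on LF diet (SD, n = 12 each, low RFI first). The diet difference was -0.63 (SE 0.13, BH adjusted p = 0.000293), a signal 1.54 times lower in HF pigs. It was called within each line, at -0.68 in low RFI pigs (BH adjusted p = 0.0144) and -0.57 in high RFI pigs (BH adjusted p = 0.0342). Within slides the difference was below 0 on 5 of 6 slides and ranged from -0.99 to 0.03, and on the 2 scan days it was -0.75 and -0.50.

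**Figure D2:**
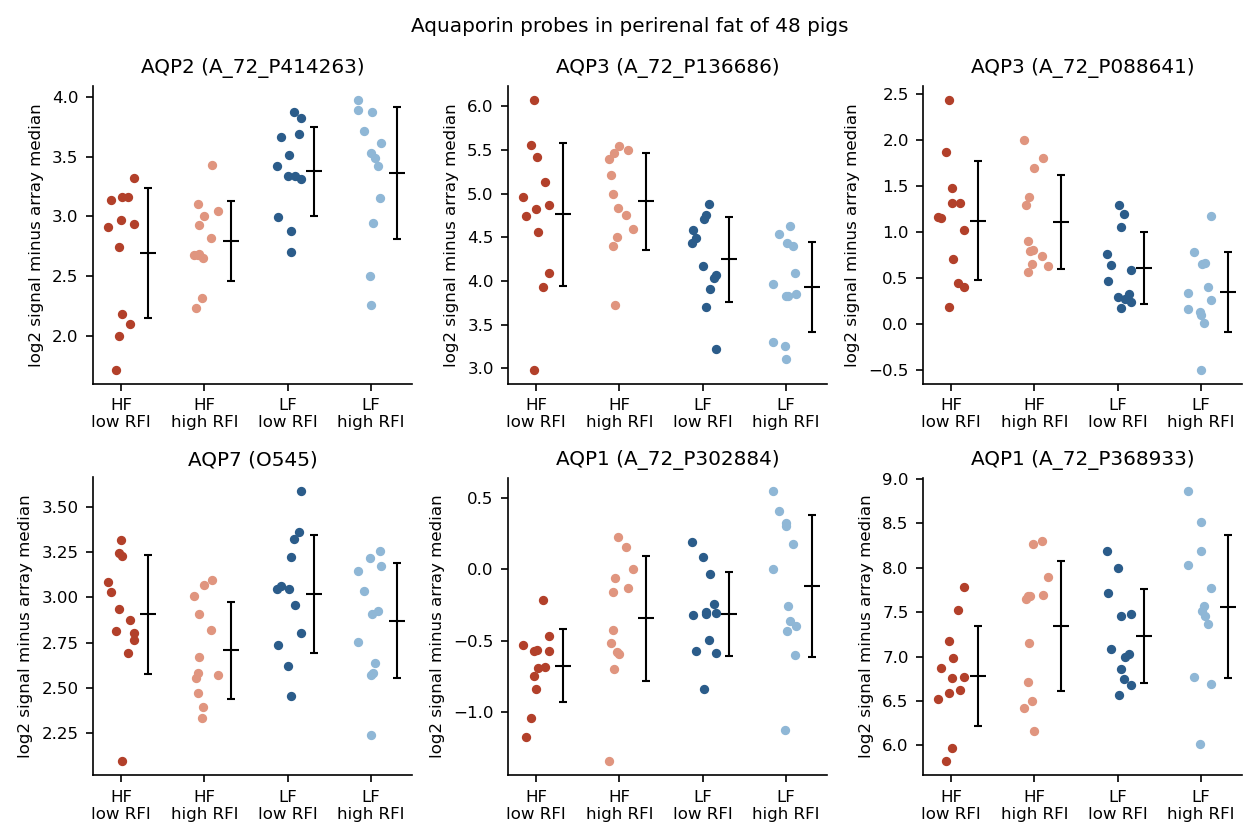
Centred log2 signal of 6 aquaporin probes in every pig by diet and line, with the mean and SD of each group of 12 as black bars. AQP2 sits lower and both AQP3 probes sit higher on HF diet, with overlap between diets, while AQP7 overlaps nearly throughout.

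The second AQP2 probe, A_72_P705562, was well above background on 0 of 48 arrays, with a spot signal of 27.5 to 46.0 beside a median local background of 30.5. The member probe had a signal of 507.5 to 2223 beside a median background of 29.8. Diet differed by -0.10 at the second probe, which is only a value at background (BH adjusted p = 0.160 in the fit without a detection filter). The AQP2 result therefore rests on 1 probe whose signal the other probe of the same transcript did not share, so that it is a result about that probe and not an established change of AQP2 mRNA.

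**Figure D3:**
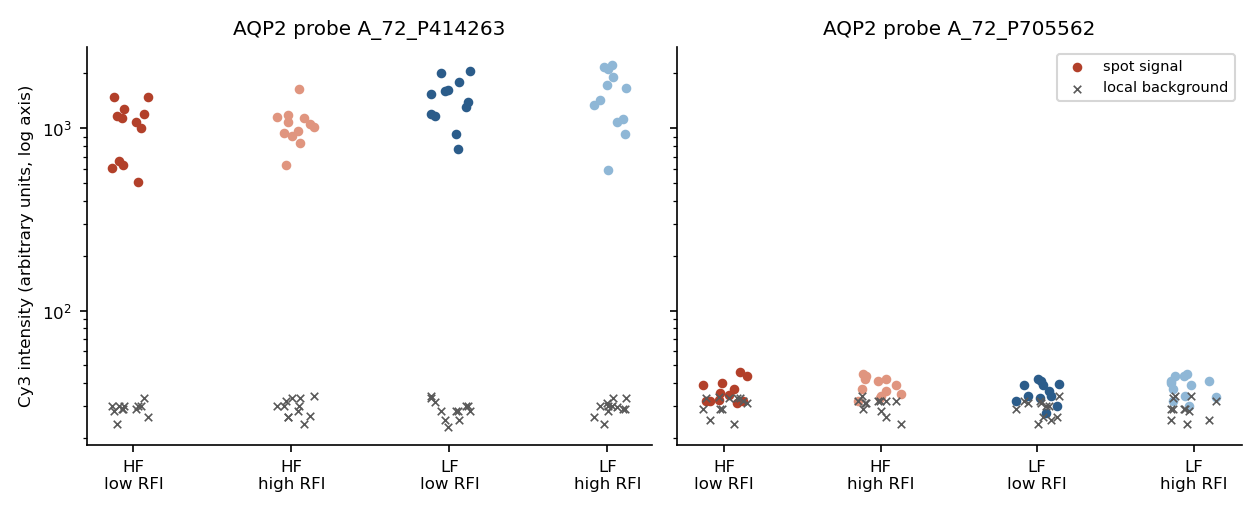
Spot signal (coloured points) and local background (grey crosses) of the 2 AQP2 probes on each of the 48 arrays by diet and line, on a log axis. The member probe on the left lies at 507.5 or above on every array, while the second probe on the right stays within 27.5 to 46.0, next to its background.

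Markers of kidney tubule and collecting duct were measured beside AQP2, since the tissue surrounds the kidney and AQP2 is a kidney gene. Of 14 such genes 10 had a probe, and 3 passed the detection filter, SLC22A6, AVPR2 and SCNN1A. SCNN1A passed at the limit, on 24 arrays, and its other probe was well above background on 0 arrays. The SLC22A6 probes disagreed and were well above background on 48, 48, 4 and 1 arrays. The thick ascending limb transporter SLC12A1 was well above background on 0 arrays. None of the 3 tested genes was called for diet in limma, beside 23.0% of all probes tested. None of the 3 had an unadjusted p in limma under 0.05. AVPR2, the vasopressin receptor that acts upstream of AQP2 in the collecting duct, differed by 0.03 between diets (SE 0.04, BH adjusted p = 0.648). The mean level of the 3 genes ran from 0.89 to 1.31 in HF pigs and from 0.85 to 1.30 in LF pigs, and these ranges overlapped nearly throughout.

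Genes known to control AQP2 in the kidney, among them vasopressin signalling, transcription and trafficking genes, were read as a list of 22. Of 18 tested, 1 was called higher and 2 lower on HF diet, with a median difference of 0.01 beside -0.05 over all genes tested. Among all probes tested, 8.57% were called higher and 14.5% lower. NFAT5, the tonicity-responsive transcription factor, rose by 0.25 (SE 0.06, BH adjusted p = 0.000991). PRKAR2A, a regulatory subunit of protein kinase A, fell by 0.18 (BH adjusted p = 0.00420), and the chaperone HSPA8 fell by 0.31 (BH adjusted p = 0.0332).

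The genes whose pattern over the 48 pigs was most like that of the AQP2 probe were PIP5KL1, VPS28, HBZ, ME1 and TICAM1. Pearson's r was 0.96 for PIP5KL1, a kinase-like protein of phosphoinositide metabolism, 0.95 for VPS28, a subunit of an endosomal sorting complex, and 0.95 for HBZ, an embryonic globin. It was 0.92 for ME1, the cytosolic malic enzyme that supplies NADPH for fatty acid synthesis, and 0.92 for TICAM1, a Toll-like receptor adaptor. Spearman's rho ran from 0.92 to 0.96 for these genes. After removal of the 4 group means, r was still 0.88 to 0.94. The values are a description over pigs that share diets, lines and slides, and the genes were chosen as the highest of 9674. All 5 were called lower on HF diet, by 0.36 (TICAM1) to 1.25 (ME1). ME1 had a median of 7.27 in HF low RFI and 6.75 in HF high RFI pigs, against 8.23 and 8.37 in the LF groups. All 3 tested probes of VPS28 (r of 0.93 to 0.95) and all 3 of ME1 (r of 0.90 to 0.92) shared the likeness. None of the 5 probes shared a run of more than 8 bases with the AQP2 probe. Only probe sequences were compared, so binding of other parts of these transcripts to the AQP2 probe was not tested.

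**Figure D4:**
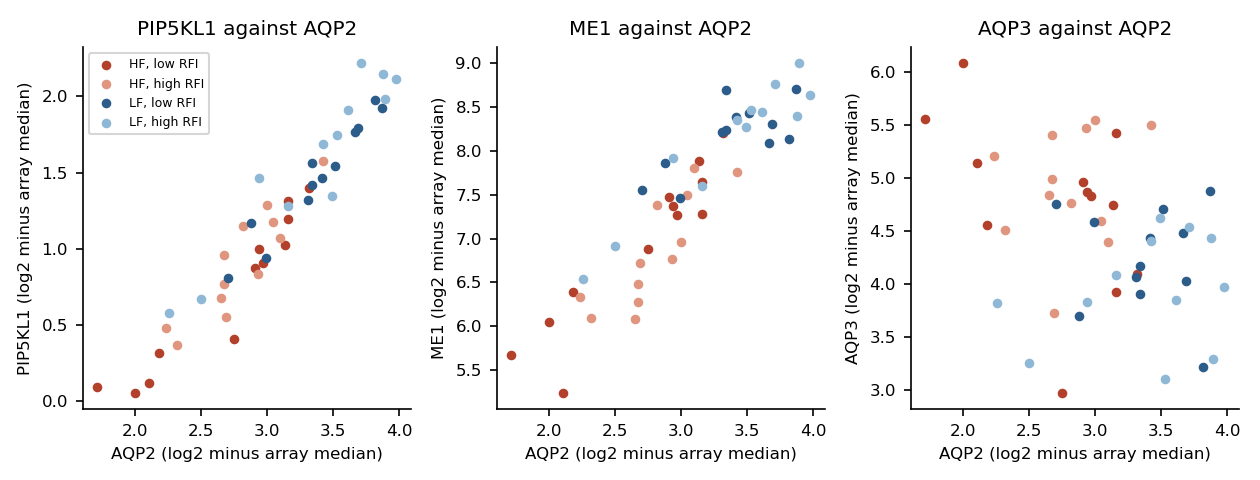
Centred log2 signal of PIP5KL1, ME1 and AQP3 (A_72_P136686) against that of the AQP2 probe, 1 point per pig, coloured by diet and line. PIP5KL1 and ME1 follow AQP2 over the 48 pigs (r of 0.96 and 0.92) and after removal of the group means (0.94 and 0.89). AQP3 runs the other way over the 48 pigs (r = -0.37), with r = -0.11 after removal of the group means.

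AQP3 was over-expressed by HF diet at each of its 4 probes. For the brightest, A_72_P136686, centred log2 signal ran from 2.98 through a median of 4.85 to 6.08 in HF low RFI pigs and from 3.72 through 4.91 to 5.54 in HF high RFI pigs. In LF pigs it ran from 3.22 through 4.31 to 4.88 in the low RFI line and from 3.11 through 3.91 to 4.63 in the high RFI line. The groups overlapped, and 11 HF pigs exceeded every LF pig, 21 of 24 exceeded the average LF pig and 1 HF low RFI pig was below every LF pig. Means were 4.76 ± 0.82 and 4.91 ± 0.55 on HF diet and 4.24 ± 0.49 and 3.93 ± 0.52 on LF diet (SD, n = 12 each, low RFI first). The difference was 0.75 (SE 0.17, BH adjusted p = 0.000876), a signal 1.68 times higher on HF diet.

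The other AQP3 probes gave 0.72 (O8153), 0.70 (A_72_P442022) and 0.64 (A_72_P088641), with BH adjusted p of 0.00132, 0.000329 and 0.000647. Probe O8153 is A_72_P136686 moved by 1 base, and these 2 shared a run of 59 bases and correlated at r = 0.99, so they are not separate evidence. A_72_P442022 and A_72_P088641 share no run of 12 bases or more with another AQP3 probe and correlated with A_72_P136686 at 0.89 each. At A_72_P088641, the probe printed above, LF pigs ran from -0.50 to 1.29 and HF pigs from 0.19 to 2.44, and 6 LF pigs were below every HF pig. On every one of the 6 slides the diet difference was above 0 at all 4 probes, between 0.33 and 0.99.

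In high RFI pigs, the diet difference of the 4 AQP3 probes was 0.76 to 0.98, and all 4 were called. In low RFI pigs it was 0.52 to 0.56, and 1 of 4 was called (A_72_P442022, BH adjusted p = 0.0738). These do not show a difference between lines, because the interaction at the 4 probes had raw p of 0.183 to 0.395.

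The estimates of the macrophage and neutrophil markers were above 0, as for AQP3, but only macrophage genes were called. Of 7 tested markers of 8, 3 were called higher on HF diet and none lower, with a median difference of 0.43 beside -0.05 over all genes. Among all probes tested, 8.57% were called higher and 14.5% lower. C1QA, a complement subunit made by macrophages, differed by 0.80 (SE 0.25), the scavenger receptor CD163 by 0.70 (SE 0.24) and the growth factor receptor CSF1R by 0.48 (SE 0.15). Not called were MSR1 (0.425, SE 0.16), CD68 (0.09, SE 0.05) and the neutrophil markers S100A9 (0.23, SE 0.19) and S100A8 (0.22, SE 0.29). The mean level of the 7 genes ran from 0.76 to 2.57 in HF pigs and from 0.46 to 2.16 in LF pigs. The part of these cells in the AQP3 result was not tested. The gene most like AQP3 over the 48 pigs was TBC1D1, a regulator of glucose transporter traffic (r = 0.70, rho = 0.71). Next came the ubiquitin ligase RNF149 (r = 0.65, rho = 0.64) and the lysosomal trafficking regulator LYST (r = 0.64, rho = 0.62). PCK1 (r = 0.63, rho = 0.64) and the GTPase-activating protein SIPA1L2 (r = 0.63, rho = 0.61) followed. All of these except RNF149 were called higher on HF diet. After removal of the 4 group means, their r with AQP3 was lower, at 0.465 (PCK1) to 0.609 (RNF149).

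AQP7, the adipocyte glycerol channel, was not called for diet. At probe O545 centred log2 signal ran from 2.09 through a median of 2.90 to 3.32 in HF low RFI pigs and from 2.33 through 2.62 to 3.10 in HF high RFI pigs. It ran from 2.45 through 3.05 to 3.59 in LF low RFI and from 2.24 through 2.92 to 3.26 in LF high RFI pigs. The ranges overlapped nearly throughout, with 1 HF pig below every LF pig. The difference was -0.14 (SE 0.09, 95% interval -0.32 to 0.04, BH adjusted p = 0.238). Its twin A_72_P106716, with the same 60 bases, gave -0.13 (SE 0.09, BH adjusted p = 0.280). The 2 spots differed by at most 0.10 on any array and correlated at r = 0.99. This gives the spread between spots within an array for this sequence only. The genes most like AQP7 were the nuclear receptor HNF4A (r = 0.73, rho = 0.78), the proteasome subunit PSMB1 (r = 0.70, rho = 0.72), the oxidoreductase AIFM2 (r = 0.70, rho = 0.71), the helicase DDX54 (r = 0.69, rho = 0.72) and the ubiquitin-conjugating enzyme UBE2G2 (r = 0.69, rho = 0.68).

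AQP10 had 1 member probe, A_72_P613152, and was not called either. Its signal ran from -0.03 through 0.23 to 0.52 and from 0.05 through 0.29 to 0.55 in HF pigs of the low and high RFI lines. It ran from 0.09 through 0.33 to 0.60 and from 0.01 through 0.37 to 0.56 in the matching LF groups, so the 4 groups covered nearly the same range. The diet difference was -0.05 (SE 0.04, 95% interval -0.14 to 0.03, BH adjusted p = 0.376). The second AQP10 probe, A_72_P442121, lay near background but was well above it on 12 HF and 3 LF arrays, with a diet difference of 0.07 (BH adjusted p = 0.378 without a detection filter). The third, O14058, was well above background on 1 array. Every AQP10 value here and below is therefore that of 1 probe of 3.

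The glycerol channels were then set against AQP2 within each pig, as the per-pig difference of 2 probes, so that any shift common to an array cancels. Here AQP2 means the probe A_72_P414263, and the doubt about what it measures holds for every pair. The pairs were chosen with diet results of these data known, and the p-values describe them rather than test an independent hypothesis. There were 6 comparisons, 3 pairs for diet and for line, each by a two-sided permutation test with 100000 permutations of the labels within the other factor. AQP3 minus AQP2, centred on its mean over the 48 pigs, was above 0 in 19 of 24 HF pigs and in 3 of 24 LF pigs. It differed between diets by 1.37 (SE 0.23, permutation p = 1e-05, the smallest that these permutations can give, BH over 6 = 6e-05). AQP7 minus AQP2 was above 0 in 16 HF and 4 LF pigs and differed by 0.49 (SE 0.14, permutation p = 0.0008, BH over 6 = 0.0016). AQP10 minus AQP2 was above 0 in 15 HF and 4 LF pigs and differed by 0.57 (SE 0.11, permutation p = 2e-05, BH over 6 = 6e-05). For AQP7 and AQP10 the difference came with a glycerol channel that was itself not called. Between lines the 3 pairs differed by 0.03 to 0.22, with permutation p of 0.113 to 0.771.

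**Figure D5:**
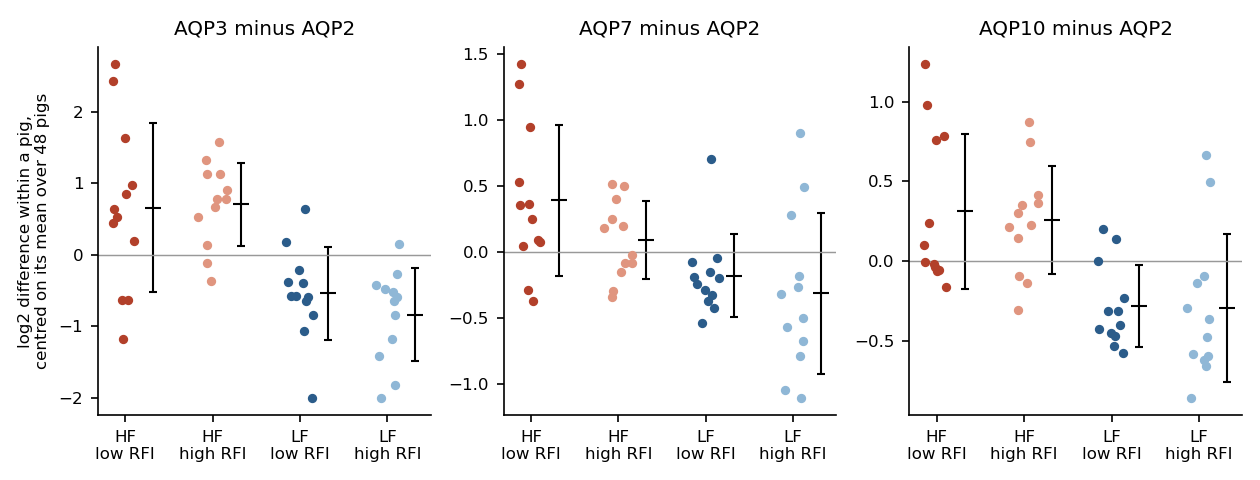
Difference in log2 signal within a pig between the brightest probe of AQP3, AQP7 or AQP10 and the AQP2 probe, centred on its mean over the 48 pigs, by diet and line, with the mean and SD of each group of 12. HF pigs lie above LF pigs in all 3 panels, by 1.37, 0.49 and 0.57.

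Probe by probe, the 7 glycerol channel probes gave diet differences of 0.75, 0.72, 0.70 and 0.64 (AQP3), -0.14 and -0.13 (AQP7) and -0.05 (AQP10), beside -0.63 for AQP2. Over the 48 pigs AQP2 correlated with AQP3 at r = -0.37 (permutation p = 0.00997, BH over 3 relations = 0.015) and rho = -0.35 (permutation p = 0.0156). Without the 2 pigs farthest from the AQP2 median r was -0.24, and it was -0.26 within HF and 0.11 within LF pigs, so the relation did not hold within diets. AQP2 correlated with AQP7 at r = 0.35 (permutation p = 0.0156, BH = 0.0156) and rho = 0.34 (permutation p = 0.0174). Without the same 2 pigs r was 0.44, and within HF and LF pigs it was 0.27 and 0.29. With AQP10 it was r = 0.55 (permutation p = 7e-05, BH = 0.00021) and rho = 0.57 (permutation p = 4e-05), 0.56 without the 2 pigs, and 0.38 within HF and 0.72 within LF pigs.

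Genes of triglyceride breakdown, glycerol phosphorylation and glycerol 3-phosphate supply, with known regulators of AQP7, were read as a list of 20. Of 17 tested, 2 were called higher and 4 lower on HF diet, with a median of -0.03 beside -0.05 over all genes. Among all probes tested, 8.57% were called higher and 14.5% lower. PCK1, the enzyme of glyceroneogenesis, had the largest difference of the list, 1.72 (SE 0.36, BH adjusted p = 0.000297), with means of 7.23 ± 1.25 in HF and 5.51 ± 1.27 in LF pigs (SD, n = 24 each). AGPAT2, an acyltransferase of triglyceride synthesis, fell by 0.39 (SE 0.09), MGLL, the monoglyceride lipase that frees glycerol, fell by 0.37 (SE 0.09) and GPD1, which makes glycerol 3-phosphate, fell by 0.22 (SE 0.07). The other called genes, GK5 and PPARG, were named after their values were seen. GK5, a glycerol kinase family member, rose by 0.20 (SE 0.07, BH adjusted p = 0.0287). PPARG, the adipogenic nuclear receptor and a known regulator of AQP7, was lower by 0.19 at its brightest probe (SE 0.07). Its call was near the limit (raw p in limma 0.00979, BH adjusted p = 0.0381). By qPCR in this tissue, the paper reported the opposite direction, with PPARG higher on HF diet. The cause of this disagreement was not tested. All 7 adipocyte markers were well above background on all arrays. Of these, LEP, which encodes leptin, fell by 0.94 and the lipid droplet gene CIDEC by 0.24, and none was called higher. ADIPOQ was higher by 0.08 and was not called (BH adjusted p = 0.266). The mean level of the 7 ran from 8.58 to 9.11 in HF and from 8.77 to 9.33 in LF pigs.

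Of the 3 AQP1 probes, 1 was called lower in HF pigs. At A_72_P302884, a dim probe, signal ran from -1.17 through a median of -0.63 to -0.22 in HF low RFI pigs and from -1.35 through -0.29 to 0.23 in HF high RFI pigs. It ran from -0.84 through -0.31 to 0.20 in LF low RFI and from -1.12 through -0.13 to 0.55 in LF high RFI pigs, with wide overlap and with 18 of 24 HF pigs under the average of LF pigs. The difference was -0.30 (SE 0.11, raw p = 0.0086, BH adjusted p = 0.0345). The call was lost when any of 25 of the 48 arrays was left out, with raw p of 0.0101 to 0.0167 in those fits. The bright probe A_72_P368933 (-0.34, SE 0.19, BH adjusted p = 0.172) and O8316 (-0.27, SE 0.13, BH adjusted p = 0.111) were not called. O8316 and A_72_P368933 correlated with A_72_P302884 at r = 0.88 and 0.78.

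Markers of the cells that carry AQP1 were read beside it. For comparison, 8.57% of all probes tested were called higher on HF diet and 14.5% lower. Of 7 endothelial genes tested, 1 was called, the junction protein CLDN5, which was higher by 0.30 on HF diet (SE 0.09, BH adjusted p = 0.0113), while PECAM1 (0.02, SE 0.07) and VWF (-0.04, SE 0.08) were not. Of 4 erythroid genes tested, the anion exchanger SLC4A1 was lower by 0.36 (SE 0.07, BH adjusted p = 0.000117) and HBB was not called (0.08, SE 0.19). The genes most like AQP1 (A_72_P368933) were the tetraspanin CD82 (r = 0.68, rho = 0.73), PGM5 (r = 0.60, rho = 0.59), LRFN5 (r = 0.59, rho = 0.58), GALT (r = 0.57, rho = 0.52) and SNAP91 (r = 0.56, rho = 0.59).

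AQP5, a water channel of secretory epithelia, and AQP6, an intracellular channel described in kidney, were not called. The AQP5 probe ran from -0.66 to 0.17 in HF pigs and from -0.48 to 0.84 in LF pigs, with medians of -0.23 and -0.13 (difference -0.09, SE 0.07, BH adjusted p = 0.303). The AQP6 probe ran from -1.68 to -1.22 in HF pigs and from -1.73 to -1.17 in LF pigs (difference -0.04, SE 0.04, BH adjusted p = 0.519). It was well above background on 15 HF and 13 LF arrays, so that its level is at the edge of detection in either diet.

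No aquaporin probe was called for line in limma or in the two-way ANOVA, beside 3.37% of all probes tested in limma (1.71% higher and 1.67% lower in low RFI pigs). Of the 13 probes, 2 had an unadjusted p in limma under 0.05, beside 5456 of the 43355 probes tested. Both were of AQP1. A_72_P368933 had means of 6.78 ± 0.56 and 7.23 ± 0.53 in low RFI pigs and of 7.34 ± 0.73 and 7.56 ± 0.80 in high RFI pigs (SD, n = 12 each, HF first). Its line difference was -0.44 (SE 0.19, raw p = 0.0208, BH adjusted p = 0.259), and that of A_72_P302884 was -0.26 (SE 0.11, raw p = 0.0194, BH adjusted p = 0.250). AQP7 differed by 0.17 (SE 0.09, BH adjusted p = 0.406), with 18 of 24 low RFI pigs above the high RFI mean. For AQP2 the line difference was -0.04, with a 95% interval from -0.30 to 0.21, and for the 4 AQP3 probes it was 0.05 to 0.17. The interaction of diet and line was called at 0 of 13 aquaporin probes and at 0% of all probes tested, in limma as well as in the two-way ANOVA, and 0 of the 13 had an unadjusted p under 0.05 in limma. Over all probes tested, 997 had an unadjusted p under 0.05 for the interaction in limma and 980 in the two-way ANOVA.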

How the data were processed

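PRAT of 48 pigs was hybridized by the authors to one-colour porcine arrays. The deposited scanner files hold Cy3 spot intensity values, not normalized between arrays, from Agilent Feature Extraction, with flags of 0 or 1 for spots well above background, uniformity and saturation. The deposited table of log2 values was made by the authors in R 2.10.0, who filtered spots and centred each array on its median. Its 38142 rows each equal 1 spot of the scanner files within 1e-06, but only 2 carry that spot's name, so names and values were taken from the scanner files. The aquaporin members and gene lists were chosen with earlier results of these data known.

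Here log2 of the median signal minus the array median over non-control probes was tested for 43355 probes with limma 3.58.1 in R 4.3.3 (4 group means, lmFit and eBayes), with BH over these probes. The fit was tested on simulated data with this design. A gene was represented by its brightest tested probe; genes were named from the files (12105 probes), from accessions (7953) and from synonyms (169). Except for GK5, PPARG and the macrophage and neutrophil markers that were not called, named genes followed 1 rule. It took every aquaporin probe and the 5 genes most correlated with AQP2, AQP7 and each called aquaporin. From each list it took up to 4 called or defining genes. Pairs were tested with 100000 permutations (numpy 2.4.6 in Python 3.11.15). Plots used matplotlib 3.10.9. Alternatives changed scaling, filter, test, blocks and samples. The number of arrays limits the precision. P-values cover the spread between pigs.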

Additional observations from a re-analysis of the deposited data

Results flagged for a closer look

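Other aquaporin probes carry a locus name instead of an AQP name in the scanner files, so they are outside the members, and they gave signal on all 48 arrays. The probe A_72_P177746, which its RefSeq accession assigns to AQP11, a channel of intracellular membranes, ran from 2.56 through a median of 3.01 to 3.73 in HF low RFI pigs and from 1.85 through 2.86 to 3.46 in HF high RFI pigs. It ran from 3.23 through 3.78 to 4.24 in LF low RFI and from 3.41 through 3.55 to 4.05 in LF high RFI pigs, and 18 of 24 HF pigs were below every LF pig. The diet difference was -0.75 (SE 0.10, BH adjusted p in limma 5.09e-07), called in each line, and it was below 0 on 6 of 6 slides. AQP11 is on a list that the study chose on these samples, so this is not independent evidence. The AQP8 probe A_72_P178106, assigned in the same way, ran from 0.83 to 1.37 in HF and from 0.61 to 1.52 in LF pigs, with a diet difference of 0.00599 (SE 0.06, BH adjusted p = 0.948).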

How the results depend on the processing

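The AQP2 call held under all 16 alternatives tried for diet (-0.68 to -0.57) and in all 48 fits without 1 array. The 4 AQP3 calls held under 15 of 16 and in all 48. Fitted in low RFI pigs alone, AQP3 differed by 0.52 to 0.56 with BH adjusted p of 0.0885 to 0.218 and was not called. AQP1 A_72_P302884 held under 11 of 16. The count of aquaporin probes called for diet was 6 and became 2 in low RFI pigs alone and 2 with 1 probe a gene, and it lay between 5 and 6 when single arrays were left out. Over all 43355 probes tested, the count fell from 9993 to 5353 in low RFI pigs alone. In low RFI pigs alone 3 of 17 tested genes of the glycerol list and 1 of 18 of the AQP2 control list were called. With BH under 0.05 and no fold threshold 5 of 18 of the AQP2 control list were called, beside 12300 of 43355 probes tested. For diet and line, directions turned only for values that were not called: AQP6 for diet (0.0528 with processed signal, 0.0084 with normexp and quantile) and for line (0.0194 with normexp and quantile, 0.0163 in HF pigs), and for line AQP2 (0.0136) and AQP10 (0.026) in LF pigs, and AQP3 (-0.15 at A_72_P136686 and -0.15 at O8153) and AQP5 (-0.0403) in HF pigs. The cause was not tested. With the replicate number as a block, 1 probe was called for line (AQP1 A_72_P302884, -0.26, BH adjusted p = 0.0789), and the count for diet was 6. The numbers do not pair the pigs by the labels: same-numbered pigs of different groups correlated at 0.10 on average, over 0.1 in 38 of 72 pairs, against -0.01 and 214 of 792 for other-numbered pigs, and same-numbered arrays lay on the same slide. The alternatives of leaving out arrays and of 1 probe a gene were chosen after seeing the data. Signal near background limits AQP6.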

Other observations

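Other lists of marker genes were read in the same fit. Among all probes tested, 23.0% were called for diet and 3.37% for line. Of 4 brown fat genes tested, CIDEA fell by 0.42 (SE 0.10, BH adjusted p in limma 0.00121) and COX7A1, a muscle and brown fat form of a respiratory chain subunit, fell by 0.32 (SE 0.09, BH adjusted p = 0.00596) on HF diet. None of the 4 adrenal cortex, 3 mesothelium and 5 skeletal muscle genes tested was called for diet. No gene of any list was called for line.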
